A study of Mus musculus with 8 samples.

Results

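The genes encoding matrix metalloproteinases (MMPs), disintegrin-like metalloproteinases with thrombospondin repeats (ADAMTS), the ADAMTS-like proteins and the tissue inhibitors of metalloproteinases (TIMPs) were examined in the whole uterus at postnatal day 10 (PD10), in mice with and without conditional deletion of *Ezh2* by *Amhr2*-Cre (cKO and control). They were taken by symbol, as every *Mmp*, *Adamts*, *Adamtsl* or *Timp* gene followed by a number. Of 16658 genes tested, 40 carried such a symbol, namely 14 *Mmp*, 18 *Adamts*, 5 *Adamtsl* and 3 *Timp* genes. Another 11 of the 51 genes of these families that were counted fell under the filter on low counts, a CPM (count scaled to library size) over 0.2 in at least 4 libraries. RNA was sequenced from 8 uteri. The 4 controls carried the floxed *Ezh2* allele on both chromosomes (*Ezh2* f/f) and no Cre. The 4 cKO uteri carried the same floxed alleles and Cre recombinase driven by *Amhr2* (*Ezh2* f/f; Acre). *Amhr2*-Cre acts in the uterine mesenchyme and also in the ovary and oviduct, and not in the uterine epithelium, and all mice were on a mixed C57BL/6/129SvEv background. *Ezh2* encodes the histone methyltransferase of polycomb repressive complex 2.

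MMPs are zinc-dependent enzymes that cut collagens, gelatins and other matrix proteins. ADAMTS enzymes are secreted relatives that trim procollagens, cleave large proteoglycans such as versican and aggrecan, or act on the fibrillin microfibrils. ADAMTS-like proteins share the thrombospondin repeats and lack the protease domain, and TIMPs bind and block the active site of metalloproteinases. In the uterus these families are known for the matrix turnover of the estrous cycle, implantation, decidualization and postpartum involution.

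Most MMP genes at the large cluster of chromosome 9 (GRCm38, chr9:7272514-7699585) were near silent in the PD10 uterus. This cluster holds 10 *Mmp* genes, and 7 of them fell under the filter, whereas 11 of the 13 *Mmp* genes elsewhere in the genome were tested. The 3 cluster genes tested, *Mmp3*, *Mmp10* and *Mmp7*, stood at 21 to 48, 37 to 89 and 10 to 35 counts per library. The stretches upstream of these genes are shown because the cluster is known for induction through AP-1, the FOS and JUN dimer. The search used TGANTCA, a loose form of the AP-1 sequence TGACTCA or TGAGTCA that allows any middle base and otherwise reads the same on both strands. In the 250 bases upstream of the start given by RefSeq (GRCm38.p6), TGANTCA occurred in 7 of the 10 cluster genes and in 0 of the 8 other *Mmp* genes with an upstream sequence. The *Mmp20* run holds TGAATCA, outside the strict AP-1 sequence, and the other runs have G or C in the middle. Among all genes with an upstream sequence, 6.85% held TGANTCA, and among the genes tested 4.60%. The motif is in capitals in the following runs, each read 5′ to 3′ on the gene's strand.
Mmp1a (chr9:7464048-7464094, plus strand): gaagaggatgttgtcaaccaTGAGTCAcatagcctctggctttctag
Mmp1b (chr9:7388093-7388139, minus strand): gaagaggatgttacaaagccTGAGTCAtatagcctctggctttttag
Mmp3 (chr9:7445756-7445802, plus strand): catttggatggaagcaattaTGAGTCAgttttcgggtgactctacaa
Mmp7 (chr9:7692007-7692053, plus strand): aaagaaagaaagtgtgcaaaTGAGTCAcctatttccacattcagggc
Mmp10 (chr9:7502259-7502305, plus strand): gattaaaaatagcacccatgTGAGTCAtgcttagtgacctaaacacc
Mmp13 (chr9:7272459-7272505, plus strand): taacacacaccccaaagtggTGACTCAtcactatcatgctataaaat
Mmp20 (chr9:7628116-7628162, plus strand): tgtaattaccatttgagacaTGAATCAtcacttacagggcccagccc
The motif was thus present both in genes with counts and in genes without. *Mmp1b* and *Mmp20* had 0 counts in all 8 libraries, which allows up to 0.0818 to 0.119 CPM per library (3 counts, counting error only).

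CpG-rich promoters are known as binding sites of polycomb repressive complex 2, so the upstream sequences of genes that changed are shown. Of the 8 genes past the threshold described below, only *Adamts17* and *Adamtsl5* had an upstream sequence in the table used. Both lay above a ratio of 0.6 of observed to expected CpG, at 0.70 and 0.71, as did 61.3% of the 12576 tested genes with an upstream sequence and 14 of the 25 tested family genes with a sequence. In the 250 bases upstream of each start below, CG pairs are in capitals.
Adamts17 (GRCm38.p6, chr7:66839485-66839734, plus strand): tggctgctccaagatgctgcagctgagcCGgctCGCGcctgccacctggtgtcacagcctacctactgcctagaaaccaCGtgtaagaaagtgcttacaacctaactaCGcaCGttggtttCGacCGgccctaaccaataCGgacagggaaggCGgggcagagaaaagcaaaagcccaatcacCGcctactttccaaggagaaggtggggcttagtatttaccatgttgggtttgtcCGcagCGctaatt
Adamtsl5 (GRCm38.p6, chr10:80348449-80348698, minus strand): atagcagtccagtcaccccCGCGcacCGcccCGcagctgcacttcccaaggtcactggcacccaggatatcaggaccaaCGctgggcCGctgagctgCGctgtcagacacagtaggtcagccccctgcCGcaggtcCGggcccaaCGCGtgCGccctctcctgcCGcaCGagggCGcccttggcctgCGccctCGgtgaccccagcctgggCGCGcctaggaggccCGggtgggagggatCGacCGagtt
The *Adamts17* run holds 13 CG pairs and the *Adamtsl5* run 22. The starts used for *Adamts17* and *Adamtsl5* lie 36 and 582 bases inside the outer end of the gene as RefSeq gives it, so the whole *Adamtsl5* run lies inside the gene. Bases just after the start were found in a transcript of *Adamts17* and not in one of *Adamtsl5*. Neither run holds the AP-1 sequence, and the GC box GGGCGG, searched on both strands, occurs in the *Adamtsl5* run only of these 2, beside 56.3% of the upstream sequences of tested genes. No chromatin mark was measured in these samples.

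The libraries held 25287141 to 36685807 counts on genes. *Ezh2* stood at 49.5, 40.5, 54.7 and 35.4 CPM in controls 1 to 4 and at 30.4, 38.0, 40.7 and 38.0 CPM in cKO 1 to 4 (log2 fold change -0.29, standard error 0.13, adjusted p = 0.247, edgeR). The genotypes overlapped. The count covers the whole gene, so exons outside the floxed part and cells without Cre contribute to it. Uterine identity was present in all libraries, with epithelial keratin and adhesion markers summing to 1199 to 1657 CPM and smooth muscle markers to 7172 to 9099 CPM. Both gland markers tested, *Foxa2* and *Cxcl15*, were lower in cKO uteri (adjusted p = 0.000241 and 0.000385, edgeR), and the gland list summed to 3.87 to 8.05 CPM in controls and 0.216 to 0.904 CPM in cKO uteri. Fat genes set 3 libraries apart. The 7 fat markers summed to 92.1, 217 and 95.7 CPM in cKO 1, 2 and 3, to 2.00 CPM in cKO 4 and to 1.07 to 3.17 CPM in controls. All 7 were above every control in cKO 1, 2 and 3. In cKO 4, *Fabp4* stood at 1.61 CPM, above the controls at 0.659 to 1.43 CPM. The other fat markers did not exceed the highest control in cKO 4, with *Adipoq* at 0.035 CPM and *Lep* at 0. Of the 5 fat markers tested, 0 passed an adjusted p of 0.05. The mast cell list summed to 36.2 to 45.9 CPM in controls and 52.1 to 67.3 CPM in cKO uteri, with 0 of 5 genes past the threshold. Of 5 skeletal muscle markers tested, *Tnnt3* and *Myh3* passed in the higher direction. *Myh3* was under 0.2 CPM in every control, so it entered the test only through the cKO libraries. *Mylpf* was also above every control in all cKO libraries without passing (adjusted p = 0.0577, edgeR). The list summed to 44.9 to 76.2 CPM in controls and 40.5 to 63.9 CPM in cKO uteri, which overlap. Most of this sum was *Acta1*, at 49.4 ± 13.9 CPM in controls and 45.2 ± 8.25 CPM in cKO uteri (SD, n = 4). Of 7 stromal markers tested, *Hoxa10* and *Hoxa11* were lower and 5 did not pass, and the sums overlapped at 3096 to 4187 and 3339 to 4295 CPM. The part of these markers in the results below was not tested. In bulk tissue, fewer cells of a type and less RNA per cell cannot be told apart.

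Between genotypes, 8 of the 40 genes passed an adjusted p-value of 0.05, 7 of them higher and 1 lower in cKO uteri. Over all genes tested, 5.34% passed, with 2.62% higher and 2.71% lower. The genes that rose were *Adamtsl5*, *Adamts16*, *Adamts6*, *Adamtsl1*, *Adamts17*, *Adamts8* and *Adamts19*, with log2 fold changes from 0.92 down to 0.35, and *Adamts7* fell by 0.28 on the log2 scale. None of the 40 also had a fold change over 2, the combined threshold for differentially expressed (DE) genes, which 1.30% of all genes met. DESeq2 and limma-voom likewise gave 0. An unadjusted p under 0.05 in edgeR was found for 19 of the 40 and for 3535 of all 16658 genes. The largest absolute log2 fold change was 0.92, and the median of the 40 was 0.13, beside 0.00 over all genes tested. By family, the calls were 6 of 18 *Adamts*, 2 of 5 *Adamtsl*, 0 of 14 *Mmp* and 0 of 3 *Timp* genes, and the difference between families was not tested. All 4 control and all 4 cKO libraries were apart for 9 genes in the higher direction and 2 in the lower. Over all genes such separation was found for 5.90% and 6.43%. The number of calls moved with single libraries, to 5 without control 1 and 14 without cKO 4. Over all genes the calls moved in the same way, from 889 to 393 and 1773.

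**Figure D1:**
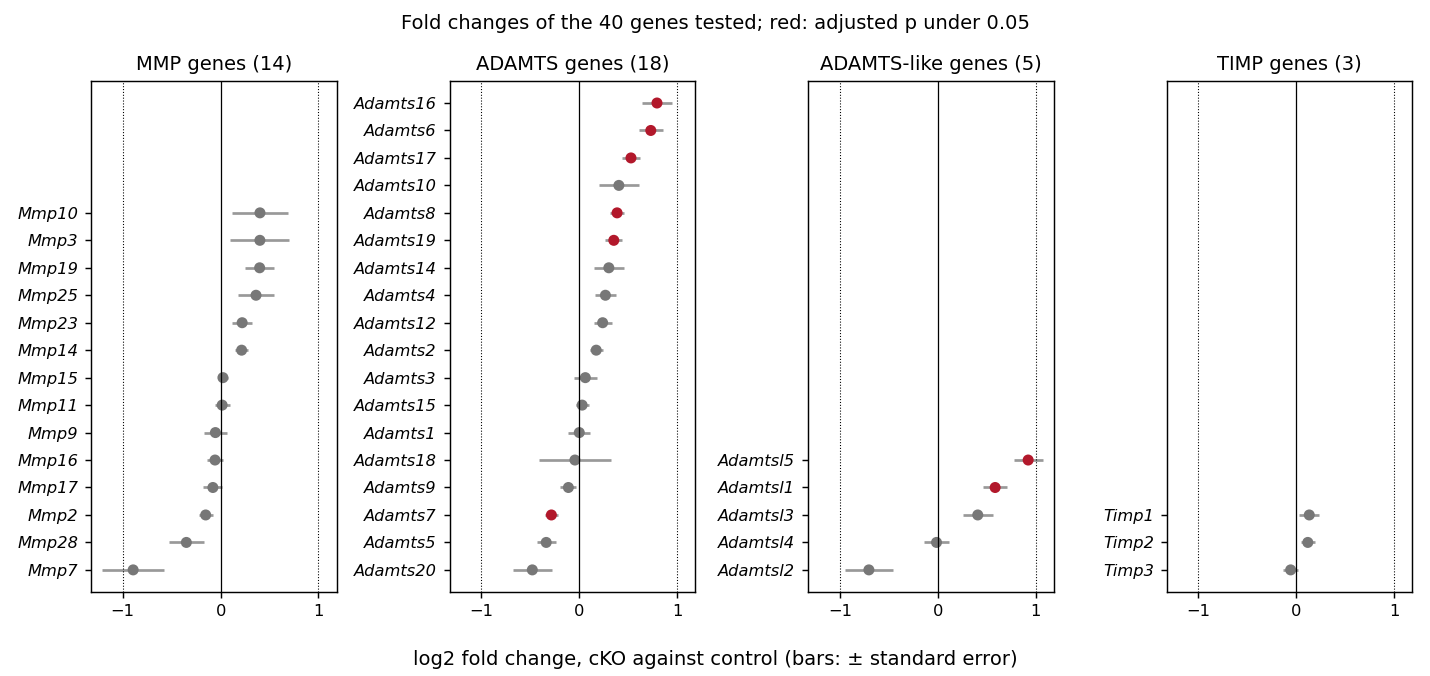
Log2 fold change of cKO against control for each of the 40 genes, by family, with bars of ± 1 standard error (edgeR, 4 libraries per genotype); red points passed an adjusted p of 0.05 and dotted lines mark a fold change of 2. The red points are 6 *Adamts* and 2 *Adamtsl* genes, none beyond the dotted lines, and no *Mmp* or *Timp* gene is red.

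By level, the families ranked differently. Genes were compared as CPM per kilobase of exon, with exon lengths from GENCODE, as the mean of each genotype. *Mmp2*, *Timp3*, *Timp2* and *Mmp14* took 73.4% of the summed level of the 40 genes. *Mmp2*, which encodes gelatinase A, stood at 257 ± 11.7 CPM per kilobase in controls (SD, n = 4) and 231 ± 21.6 in cKO uteri. *Timp3*, whose product is bound to the matrix and inhibits ADAMTS enzymes as well as MMPs, followed with 194 ± 17.3 and 186 ± 12.5 CPM per kilobase. *Timp2* stood at 131 ± 11.6 and 142 ± 10.4, and *Mmp14* at 91.4 ± 2.52 and 106 ± 8.36. The products of *Mmp14*, *Timp2* and *Mmp2* are known to act together, since membrane-type 1 MMP holds TIMP2 as a receptor for pro-MMP2 and so activates it. *Mmp23*, with 35.0 ± 1.37 and 40.8 ± 6.86 CPM per kilobase, was next. The highest *Adamts* genes, *Adamts10* and *Adamts1*, reached 14.4 ± 4.26 and 11.5 ± 0.50 CPM per kilobase in cKO uteri and did not differ from each other beyond their spread in controls (10.8 ± 1.21 and 11.5 ± 2.14). *Adamts18* was the lowest, and the highest level was 2627 times its level.

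Summed by family, the level per kilobase was 433 to 465 in controls and 411 to 487 in cKO uteri for the *Mmp* genes, and 303 to 367 and 324 to 347 for the *Timp* genes. For the *Adamts* genes it was 89.7 to 103 and 98.5 to 118 CPM per kilobase, and for the *Adamtsl* genes 16.7 to 23.5 and 22.0 to 30.2. The genotypes overlapped in all 4 sums.

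**Figure D2:**
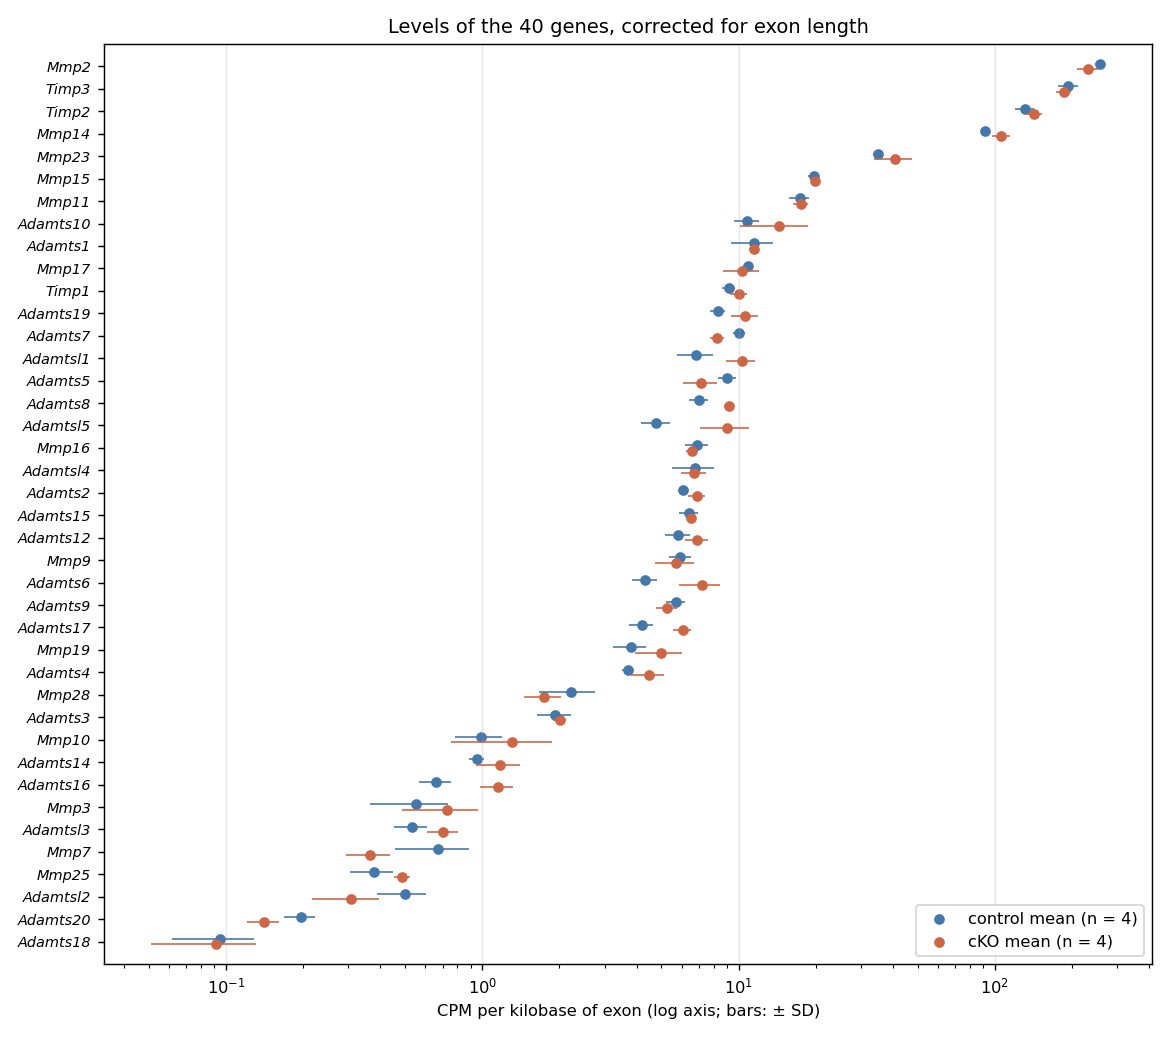
Mean CPM per kilobase of exon (log axis) of the 40 genes in control (blue) and cKO (orange) uteri, with bars of ± SD over 4 libraries, ordered by mean level. *Mmp2*, *Timp3*, *Timp2* and *Mmp14* stand at the top in both genotypes.

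Among the ADAMTS-like genes, *Adamtsl5* had the largest change of the 40. Its product is a secreted, fibrillin-binding protein. In controls 1 to 4 it was at 9.71, 12.1, 9.53 and 9.31 CPM, and in cKO 1 to 4 at 21.7, 23.6, 17.3 and 14.5 CPM. All cKO libraries were above all controls. It rose by 0.92 on the log2 scale (standard error 0.15, adjusted p = 0.00387, edgeR). Without control 2, or without cKO 4, it exceeded a fold change of 2, with log2 fold changes of 1.02 and 1.03.

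*Adamtsl1*, which encodes punctin, was at 54.7, 69.8, 47.7 and 55.9 CPM in controls and 80.5, 89.6, 99.0 and 72.9 CPM in cKO uteri, again without overlap (log2 fold change 0.59, standard error 0.12, adjusted p = 0.0179, edgeR). Without control 1 the adjusted p was 0.0645. *Adamtsl4*, known for its role in anchoring the lens, was at 27.3 ± 5.10 CPM in controls and 27.0 ± 3.03 CPM in cKO uteri (SD, n = 4; log2 fold change -0.01, standard error 0.13, adjusted p = 0.967), and its sign changed with upper-quartile factors and limma-voom. *Adamtsl3* had a log2 fold change of 0.41 (adjusted p = 0.144). *Adamtsl2*, a regulator of TGF-β availability, had a value in the other direction, with 1.77, 1.59, 2.35 and 1.48 CPM in controls and 1.59, 0.971, 0.955 and 0.911 CPM in cKO uteri (log2 fold change -0.70, standard error 0.24, adjusted p = 0.117). Only cKO 1 reached into the control range.

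Among the ADAMTS enzymes, *Adamts6* and *Adamts10* form a related pair linked to fibrillin microfibrils. *Adamts6* was at 27.9, 24.6, 31.6 and 30.7 CPM in controls and 51.0, 58.2, 43.5 and 38.2 CPM in cKO uteri. Its libraries did not overlap, and the gene rose by 0.73 on the log2 scale (standard error 0.12, adjusted p = 0.00637, edgeR). *Adamts10* varied within the cKO group. It was at 109 and 106 CPM in cKO 1 and 2 and at 69.4 and 59.2 CPM in cKO 3 and 4, beside 55.9 to 72.1 CPM in controls (log2 fold change 0.41, standard error 0.20, adjusted p = 0.292).

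*Adamts17* and *Adamts19* are another related pair, and *ADAMTS17* mutations are known to cause a Weill-Marchesani-like disorder of connective tissue. *Adamts17* (Entrez 233332, chr7:66839699-67153171 of GRCm38) was at 24.2, 26.3, 28.5 and 31.2 CPM in controls and 39.9, 39.1, 44.1 and 36.1 CPM in cKO uteri. It rose by 0.53 on the log2 scale (standard error 0.09, adjusted p = 0.00387, edgeR), with no overlap. *Adamts19* was at 44.4, 45.2, 38.7 and 42.3 CPM in controls and 52.4, 63.1, 55.2 and 47.4 CPM in cKO uteri (log2 fold change 0.35, standard error 0.08, adjusted p = 0.0310, edgeR). The gap between the genotypes was narrow, from 45.2 to 47.4 CPM. The call of *Adamts19* was lost without control 1, 3 or 4 and without cKO 1, 2 or 3, with adjusted p up to 0.0875.

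*Adamts16* and *Adamts18* are paralogs with roles in kidney, lung and reproductive tract development. *Adamts16* (Entrez 271127, chr13:70727798-70841845) was low, at 4.13, 3.71, 2.89 and 3.65 CPM in controls and 7.26, 6.79, 5.79 and 5.18 CPM in cKO uteri. The genotypes did not overlap (log2 fold change 0.80, standard error 0.15, adjusted p = 0.0102, edgeR). *Adamts18*, at 0.536 ± 0.188 CPM in controls and 0.514 ± 0.225 CPM in cKO uteri (SD, n = 4), had a log2 fold change of -0.04 with a standard error of 0.37, so a change of the size of that in *Adamts16* was not detectable with confidence at this depth.

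Of the 7 enzymes that cleave versican and other hyalectan proteoglycans, *Adamts8* passed the test. It was at 26.5, 27.6, 22.3 and 25.4 CPM in controls and 33.2, 35.3, 31.9 and 32.7 CPM in cKO uteri (log2 fold change 0.39, standard error 0.08, adjusted p = 0.0109, edgeR), and its libraries did not overlap. Of its exon bases, 13.5% overlap *Gm29724* on the opposite strand, and the strand setting of the counting is not given in the sources used here. *Adamts5*, the main aggrecanase of mouse cartilage, was the highest *Adamts* gene by mean CPM over the 8 libraries. In cKO uteri alone *Adamts10* had the higher mean (86.1 against 77.3 CPM). *Adamts5* was at 95.1, 96.3, 90.4 and 108 CPM in controls and 69.2, 83.1, 66.2 and 90.7 CPM in cKO uteri. Only cKO 4 reached the control range, and the log2 fold change was -0.34 with a standard error of 0.10 (adjusted p = 0.0701, edgeR). With DESeq2 its adjusted p was 0.0229, and without cKO 4 it was 0.0115 in edgeR. *Adamts1*, which is needed for normal ovulation and urogenital development, was at 55.9 ± 10.4 and 55.9 ± 2.44 CPM (SD, n = 4; log2 fold change 0.00, adjusted p = 0.996), and its sign changed without the filter on low counts and when single libraries were left out. The low *Adamts20* stood at 1.46 to 1.96 CPM in controls and 1.05 to 1.44 CPM in cKO uteri, apart in all libraries without passing the test (log2 fold change -0.48, standard error 0.20, adjusted p = 0.190). The other members, *Adamts4*, *Adamts9* and *Adamts15*, had log2 fold changes of 0.27, -0.11 and 0.03.

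Among the procollagen N-proteinases, which remove the amino propeptide of fibrillar procollagens, none of *Adamts2*, *Adamts3* and *Adamts14* passed. Their log2 fold changes were 0.17, 0.06 and 0.30. *Adamts2* was nonetheless apart in all libraries, at 41.8 to 46.8 CPM in controls and 47.3 to 55.6 CPM in cKO uteri (adjusted p = 0.157).

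*Adamts7* was the 1 gene of the 40 past the threshold in the lower direction in edgeR. Together with *Adamts12* it encodes an enzyme that degrades cartilage oligomeric matrix protein. It was at 58.8, 57.9, 60.7 and 53.3 CPM in controls and 45.1, 45.2, 51.4 and 47.6 CPM in cKO uteri, without overlap (log2 fold change -0.28, standard error 0.06, adjusted p = 0.0238, edgeR). Its call was lost without control 1 or 3 and without cKO 1 or 2, with adjusted p up to 0.0873. *Adamts12* had a log2 fold change of 0.24 (adjusted p = 0.155).

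**Figure D3:**
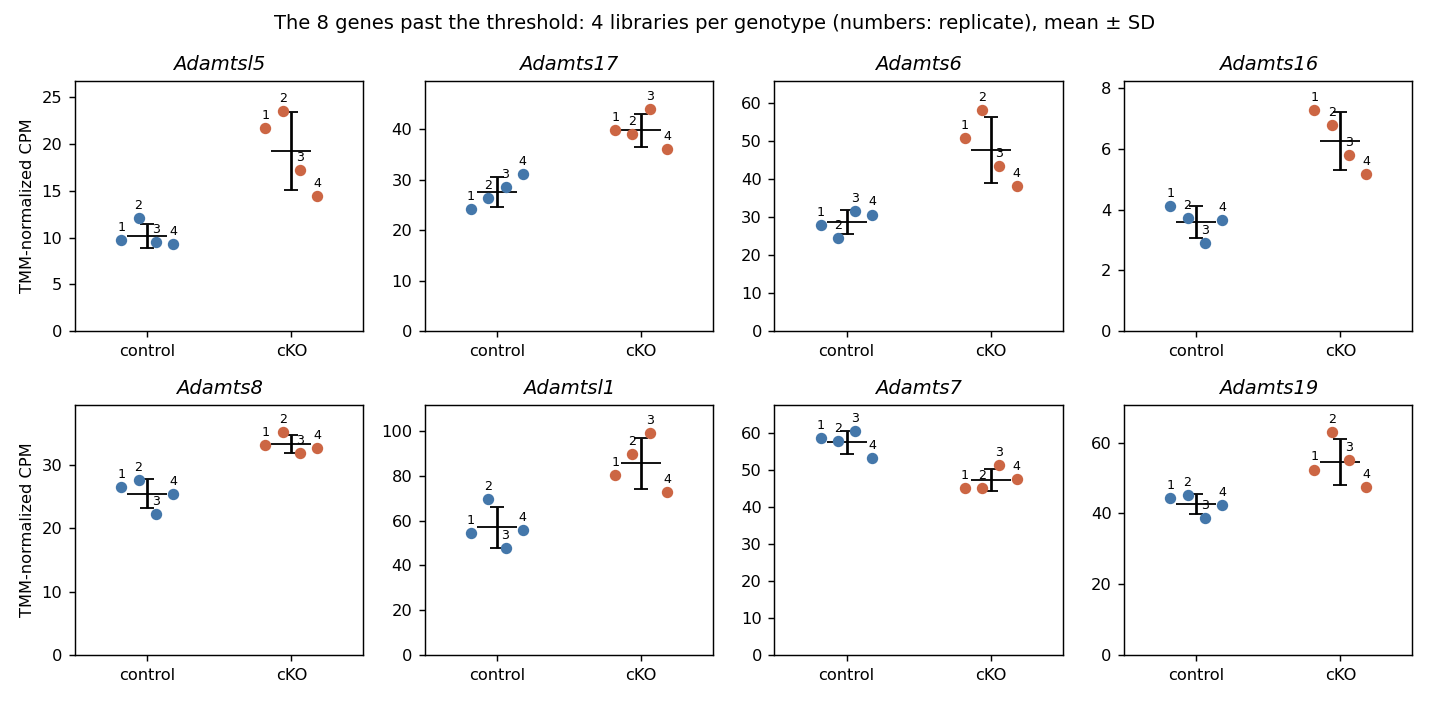
TMM-normalized CPM of the 8 genes past an adjusted p of 0.05 in the 4 control (blue) and 4 cKO (orange) libraries, numbered by replicate, with mean ± SD; each axis starts at 0. In every panel the libraries of the genotypes are apart, and in *Adamtsl5*, *Adamts17*, *Adamts6*, *Adamts16*, *Adamtsl1* and *Adamts19* the lowest cKO point is replicate 4.

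The MMP genes gave 0 calls of 14 in edgeR, with 4 at an unadjusted p under 0.05, a share near that of all genes (3535 of 16658). DESeq2 gave 1 call, *Mmp14*, and limma-voom gave 0. *Mmp14* encodes membrane-type 1 MMP, a collagenase of the cell surface. It was at 381, 395, 370 and 383 CPM in controls and 430, 454, 486 and 404 CPM in cKO uteri. All cKO libraries were above all controls, by a small margin (log2 fold change 0.21, standard error 0.06, adjusted p = 0.0699, edgeR). The DESeq2 adjusted p was 0.0175, the value with upper-quartile factors was 0.0497, and without cKO 4 it was 0.0216. *Mmp2* was at 830, 774, 750 and 813 CPM in controls and 662, 714, 806 and 668 CPM in cKO uteri. Only cKO 3 lay among the controls (log2 fold change -0.15, standard error 0.07, adjusted p = 0.235). *Mmp9*, the other gelatinase, was at 18.8 ± 1.81 and 18.1 ± 3.08 CPM (SD, n = 4; log2 fold change -0.05, adjusted p = 0.830). The third by CPM, *Mmp15*, another membrane-type enzyme, was at 101 ± 4.73 and 102 ± 3.90 CPM (log2 fold change 0.02, standard error 0.05, adjusted p = 0.840).

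*Mmp7*, which encodes matrilysin, a small epithelial MMP, had the largest absolute fold change of those that missed the threshold. It was near the detection limit, at 0.473, 0.580, 0.856 and 0.961 CPM in controls and 0.388, 0.368, 0.308 and 0.490 CPM in cKO uteri, and cKO 4 lay above control 1 (log2 fold change -0.89, standard error 0.32, adjusted p = 0.1247). The gland markers were lower in the same libraries, and their part in this value was not tested. Of the exon bases of *Mmp7*, 11.5% overlap *AV064505* on the opposite strand. The stromelysin genes *Mmp3*, *Mmp10* and *Mmp11* had log2 fold changes of 0.40, 0.40 and 0.02. *Mmp16*, *Mmp17* and *Mmp25*, of the membrane-type group, had -0.06, -0.08 and 0.36. *Mmp19*, *Mmp23* and *Mmp28* had 0.40, 0.22 and -0.35. Of the exon bases of *Mmp19* and *Mmp28*, 29.0% and 12.3% overlap genes of the opposite strand, as do 7.36% of those of *Adamts9* and 2.13% of those of *Adamts7*.

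The collagenase genes *Mmp1a*, *Mmp1b*, *Mmp8* and *Mmp13* all fell under the filter, as did *Mmp12*, *Mmp20*, *Mmp21*, *Mmp24*, *Mmp27*, *Adamts13* and *Timp4*. None exceeded 15 counts in a library. *Timp4* held that count, in cKO 2, beside 5, 11 and 3 counts in the other cKO libraries and 1 to 4 in controls.

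None of the 3 *Timp* genes tested passed in edgeR, DESeq2 or limma-voom, and 0 had an unadjusted p under 0.05 in edgeR. *Timp1*, the inducible, secreted inhibitor, was at 8.04, 7.50, 8.42 and 8.54 CPM in controls and 8.19, 9.87, 8.69 and 8.90 CPM in cKO uteri (log2 fold change 0.13, standard error 0.10, adjusted p = 0.482). *Timp2* was at 489, 547, 457 and 455 CPM in controls and 537, 546, 559 and 472 CPM in cKO uteri (log2 fold change 0.12, standard error 0.07, adjusted p = 0.387). For *Timp3* the values were 947, 995, 802 and 913 CPM in controls and 805, 891, 871 and 947 CPM in cKO uteri (log2 fold change -0.06, standard error 0.07, adjusted p = 0.695). The genotypes overlapped in all 3.

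The genes that rose were set beside the fat markers by library, and the part of fat in their values was not tested. The fat sum was highest in cKO 2, as were *Adamtsl5*, *Adamts6*, *Adamts8* and *Adamts19*. *Adamts17* and *Adamtsl1* were highest in cKO 3 and *Adamts16* in cKO 1. In cKO 4, where the fat markers were within the control range in sum, all 7 genes that rose were still above every control, and for 6 of the 7, *Adamts8* being the exception, cKO 4 was the lowest cKO library. The log2 ratio of cKO 4 to the control mean was 0.51 for *Adamtsl5*, 0.53 for *Adamts16*, 0.41 for *Adamts6*, 0.39 for *Adamts17*, 0.36 for *Adamts8*, 0.36 for *Adamtsl1* and 0.15 for *Adamts19*. In cKO 1 to 3 together it was 1.04, 0.88, 0.83, 0.57, 0.40, 0.65 and 0.41 for the same genes. For *Adamts7* the ratios were -0.28 and -0.29. A fat score, the mean log2 CPM of the fat list, was -2.62 to -1.37 in controls, 2.98, 4.17 and 2.69 in cKO 1 to 3 and -2.50 in cKO 4. Fat and genotype thus went together except in cKO 4, and a fit with both rests its genotype term largely on that library. Lost calls in it cannot tell fat and genotype apart. With the score as a covariate in edgeR, 0 of the 40 genes passed, with 5 *Adamts* and 3 *Adamtsl* genes at an unadjusted p under 0.05. Over all 16658 genes tested, 125 passed and 1581 had an unadjusted p under 0.05. With the covariate, the fitted log2 fold change was 0.35 for *Adamts8* against 0.39 without the covariate, 0.44 against 0.53 for *Adamts17* and -0.27 against -0.28 for *Adamts7*, while on the log2 scale *Adamtsl5* went from 0.92 to 0.50, *Adamts6* from 0.73 to 0.44, *Adamts16* from 0.80 to 0.57, *Adamtsl1* from 0.59 to 0.37 and *Adamts19* from 0.35 to 0.16. With cKO 4 alone against the 4 controls, the log2 fold changes lay near those with the covariate, at 0.52 for *Adamtsl5* and 0.16 for *Adamts19*, so these fits are not independent. With cKO 4 alone, the spread came from the controls only and the lone library was assumed to vary like them. In that fit 0 of the 40 genes passed, with an unadjusted p under 0.05 for 1 *Mmp*, 5 *Adamts* and 2 *Adamtsl* genes. Over the 16122 genes tested in it, 35 passed and 1164 had an unadjusted p under 0.05.

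**Figure D4:**
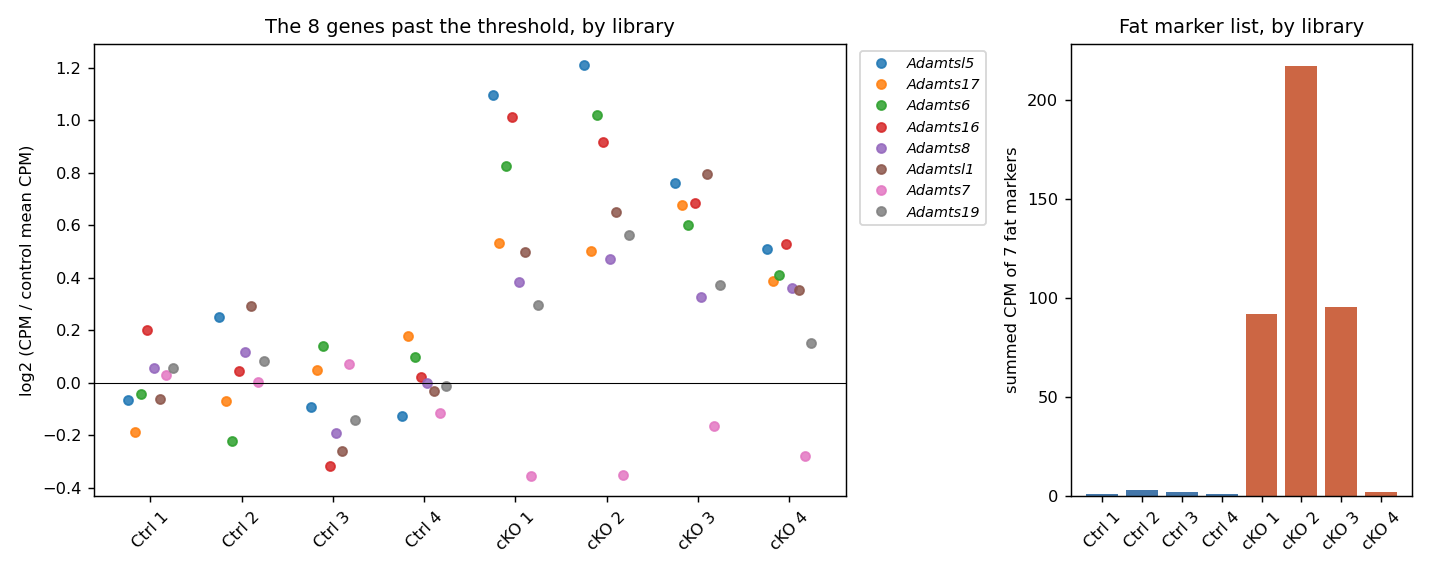
Left, log2 ratio of each library's CPM to the control mean for the 8 genes past the threshold; right, summed CPM of the 7 fat markers in the same libraries. The 7 genes that rose lie above 0 in all 4 cKO libraries, with the lowest cKO point in cKO 4 for 6 of them (all but *Adamts8*), while the fat markers reach 92.1 to 217 CPM in cKO 1 to 3 and 2.00 CPM in cKO 4.

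Genes around these families were read from 2 lists, one of 27 tested regulators and substrates of the metalloproteinases and one of 13 tested ADAM proteases, membrane relatives without thrombospondin repeats. In the first, 6 genes passed in the higher direction, *Acan* among them, 2 in the lower, and 19 did not pass. Leaving *Acan* out, whose passage through the filter is described below, 5 were higher. The median log2 fold change was 0.25. Over all genes tested 2.62% were higher and 2.71% lower, with a median of 0.00. *Pcolce2* and *Pcolce*, enhancers of procollagen C-propeptide removal, both rose. *Pcolce2* went from 3.79, 4.53, 3.46 and 3.65 CPM to 7.65, 8.500, 7.02 and 7.67 CPM (log2 fold change 1.00, standard error 0.13, adjusted p = 0.000653), and *Pcolce* went from 108 ± 5.94 to 148 ± 20.8 CPM (log2 fold change 0.46, adjusted p = 0.0133). *A2m*, a plasma protease trap, went from 114 ± 26.5 to 192 ± 31.0 CPM, with a log2 fold change of 0.74 (adjusted p = 0.0386), and its call was lost without the filter on low counts and without control 1, 2 or 3 or cKO 1, 2 or 3. *Papln*, which encodes papilin, a matrix protein with ADAMTS-like repeats, went from 12.1 ± 2.06 to 18.9 ± 2.21 CPM (log2 fold change 0.64, adjusted p = 0.0109). *Fbn2*, a fibrillin, went from 73.7 ± 14.5 to 112 ± 10.3 CPM (log2 fold change 0.60, adjusted p = 0.0220), and its call was lost without control 2 or 3 and without cKO 2 or 3.

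*Acan*, which encodes the ADAMTS substrate aggrecan, was near the detection limit, at 0.0631, 0.155, 0.178 and 0.357 CPM in controls and 0.932, 0.569, 0.678 and 0.490 CPM in cKO uteri (log2 fold change 1.75, standard error 0.43, adjusted p = 0.0331). Only 1 control exceeded 0.2 CPM, so the gene passed the filter on low counts only through the cKO libraries, in which it was high, and its values are given as a description. The call was lost without control 1, 2 or 3 and without cKO 1, 2 or 3, and the gene was not tested under a filter of 1 CPM. Of the cartilage markers, *Col2a1* was at 0.186 ± 0.216 CPM in controls and 0.272 ± 0.0499 CPM in cKO uteri (log2 fold change 0.53, adjusted p = 0.692), and *Sox9* was lower in cKO uteri (4.79 ± 0.753 against 7.79 ± 0.966 CPM, SD, n = 4; adjusted p = 0.0133, edgeR). Their part in the value of *Acan* was not tested. *Thbs1*, which encodes thrombospondin-1, fell from 238, 240, 216 and 239 CPM to 102, 131, 160 and 152 CPM (log2 fold change -0.77, standard error 0.12, adjusted p = 0.00365). *Plat*, the tissue plasminogen activator, fell from 593 ± 62.8 to 434 ± 33.9 CPM (log2 fold change -0.45, adjusted p = 0.00637). The count of 8 became 12 with DESeq2, 5 without control 3, without cKO 2 or without cKO 3, and 1 with the fat covariate, *Pcolce2*. With that covariate all 8 kept their sign, with *Pcolce* at 0.20 and *Pcolce2* at 0.94 on the log2 scale.

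In the ADAM list, *Adam33* rose and *Adam12* fell, and the median log2 fold change of the 13 was 0.02. These are 2 of 13 genes, beside 5.34% of all genes. *Adam33*, an asthma-associated protease of mesenchymal cells, was at 1.86, 1.24, 1.18 and 1.76 CPM in controls and 6.87, 6.56, 3.36 and 2.28 CPM in cKO uteri (log2 fold change 1.64, standard error 0.34, adjusted p = 0.0207). The 4 cKO values spread widely and stayed above the controls. *Adam12*, which encodes meltrin alpha, was at 85.7, 93.5, 69.6 and 76.7 CPM in controls and 55.7, 55.5, 49.6 and 42.5 CPM in cKO uteri, with the lowest value in cKO 4 (log2 fold change -0.68, standard error 0.10, adjusted p = 0.00305). *Adam33* was not called without control 2 or 3, without cKO 1 or 2, or with the fat covariate, where *Adam12* was the 1 gene called. With that covariate the log2 fold change of *Adam33* went from 1.64 to 0.71 and that of *Adam12* from -0.68 to -0.92. Without cKO 4, 5 genes of this list passed, beside 1773 of the 16549 genes tested in that fit.

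**Figure D5:**
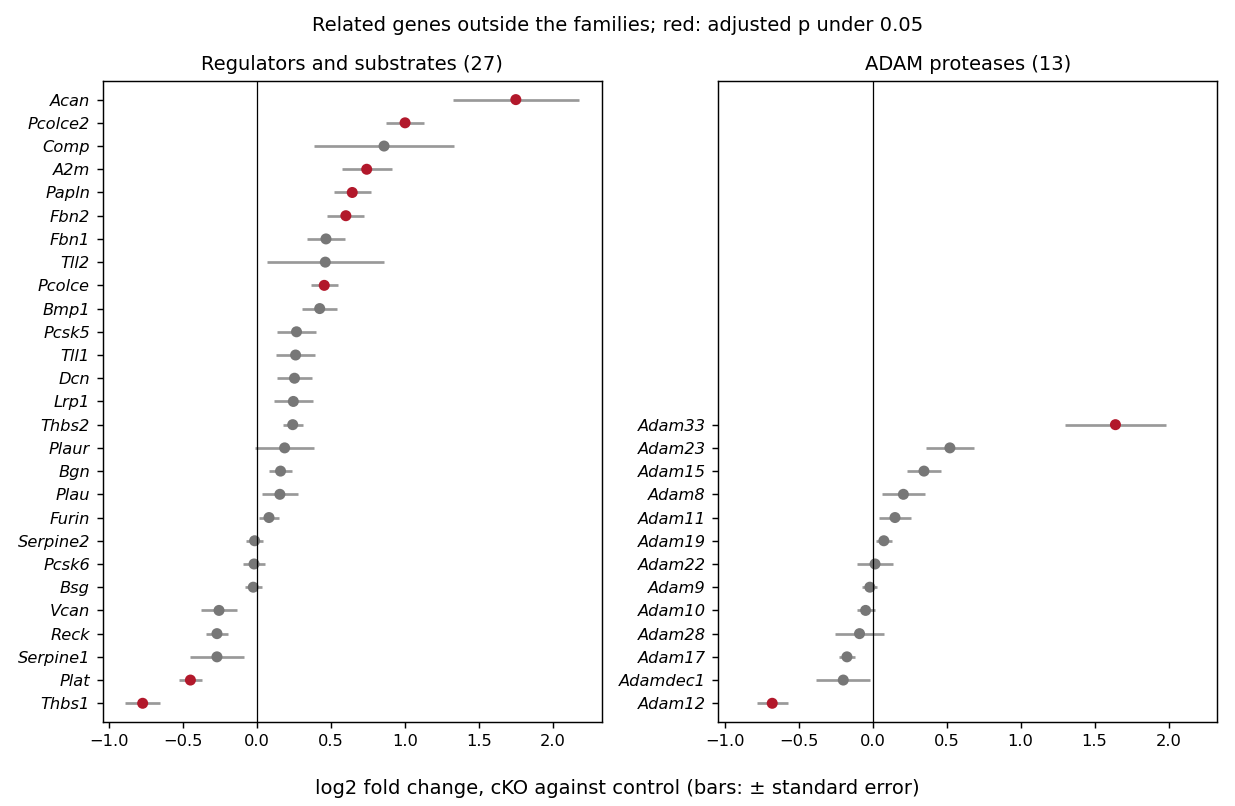
Log2 fold change of cKO against control with bars of ± 1 standard error for the 27 regulators and substrates (left) and the 13 ADAM proteases (right); red points passed an adjusted p of 0.05 (edgeR). Red points on the left are 6 genes above 0 and *Plat* and *Thbs1* below it, and on the right *Adam33* above and *Adam12* below.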

How the data were processed

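Stranded mRNA libraries were made from 8 whole uteri, 1 per sample. According to the labels and the methods of the study, the authors used Trimmomatic and FastQC on the reads, HISAT2 for alignment to GRCm38, and featureCounts for counting. The authors deposited these raw counts by Entrez gene for 27179 genes. The annotation release, the strand setting and the treatment of reads shared by several genes are not given in the sources used here. The deposited edgeR comparison, with fold changes and p-values, served only for gene symbols and the list of genes.

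From the counts, genes above 0.2 CPM in 4 or more libraries entered edgeR 4.0.16 in R 4.3.3, with TMM factors, glmQLFit with robust = TRUE, glmQLFTest, a prior count of 0.125 and Benjamini-Hochberg adjustment over all 16658 genes. The standard error is the absolute log2 fold change divided by the square root of F. CPM values are TMM-normalized. DESeq2 1.42.0, limma 3.58.1 (voom), other factors and filters, a replicate block, a fat covariate and leaving out libraries were alternatives. The test was checked on simulated counts. All pairs of libraries differed by more than sampling noise (chi-square over genes, 7.8 to 31.78 per gene). By this measure cKO 4 was nearer to control 4 (12.5) and control 3 (14.9) than to the other cKO libraries (18.9 to 21.2). The labels do not say whether each uterus came from a separate litter, so p-values measure the spread between these samples.

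Exon lengths and overlaps came from the GENCODE M21 basic annotation, and upstream sequences, given for 36 of the 51 genes, from RefSeq, both on GRCm38. The genes, lists and alternatives were chosen with earlier results of these data known. Genes named by rule are *Ezh2*, all *Timp* genes, those with an adjusted p under 0.05, the 3 highest by CPM of each other family, the 3 with the largest fold change that missed the threshold, and called genes of both lists. Values of further family members are given to account for all of them.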

Additional observations from a re-analysis of the deposited data

Results flagged for a closer look

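In 64 groups of 4 libraries, for the genes named by rule, 3 held a library far from the other 3 by Dixon's test at the 95% level, where chance marks about 1 in 20. *Adamtsl5* in control 2 was at 12.1 CPM, and the next control was at 9.71 CPM (gap over range 0.85). *Adamtsl2* in cKO 1 was at 1.59 CPM, and the next cKO library was at 0.971 CPM (gap over range 0.91). *Thbs1* in control 3 was at 216 CPM, and the next control was at 238 CPM (gap over range 0.94).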

How the results depend on the processing

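Under RLE and upper-quartile factors, limma-voom, robust = FALSE, no filter and a filter of 1 CPM, between 8 and 9 of the 40 genes passed, against 8, and DESeq2 gave 10, with 1506 of all genes called against 889. With the fat score as a covariate 0 family genes, 1 regulator or substrate gene and 1 ADAM gene passed, out of 125 of all genes. The log2 fold changes of the 8 called family genes kept their sign, from 0.16 (*Adamts19*) to 0.57 (*Adamts16*) for those that rose. The genotype term of this fit rests largely on cKO 4. With cKO libraries 1, 2 and 3 left out the counts were 0, 0 and 0, with the spread taken from the controls only. DESeq2 gave 12 regulator and substrate genes in place of 8 and 4 ADAM genes in place of 2, and the cause was not tested. Leaving out 1 library gave 5 to 14 family genes, 0 to 1 family genes past both thresholds, 5 to 11 regulator and substrate genes and 1 to 5 ADAM genes. A fold change over 2 inside the test gave 0 family genes.

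With a replicate block, 1240 of all genes passed, against 889, and 11 family, 10 regulator or substrate and 4 ADAM genes did, *A2m* losing its call and *Mmp19*, *Adamts5* and *Adamts10* being added to the family genes. The correlations of same-numbered deviations were 0.020, 0.11, -0.00026 and 0.19, and not every library correlated best with its own number. Controls 1 and 2 gave 0.020 to 0.16 with cKO 1 and 2, and controls 3 and 4 gave -0.00026 to 0.19 with cKO 3 and 4. The remaining pairs were all negative, from -0.18 to -0.033. These values cannot decide whether the numbers pair the samples, and a shared batch was not tested.

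Fold changes were refitted for *Ezh2*, the family genes named by rule and the called genes of both lists, and 6 of them, all family genes, changed direction in some fit. With the fat covariate, *Timp2* was at -0.037, *Timp3* at 0.019, *Adamts10* at -0.11 and *Adamts1* at -0.090. Without cKO libraries 1, 2 and 3 these were -0.036, 0.059, -0.13 and -0.062. *Adamts1* was at -0.0030 without a filter and between -0.099 and 0.12 when 1 library was left out. *Adamtsl4* was at 0.0056 with upper-quartile factors, 0.0029 with limma-voom and between -0.11 and 0.10 with 1 library left out. *Mmp15* was between -0.00038 and 0.054 with 1 library left out. At about 0.5 CPM, *Mmp7* and *Adamts18* had standard errors of 0.32 and 0.37 on the log2 scale.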
